A study of Medicago sativa with 9 samples.

Results

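Adenylylsulfate reductase (APS reductase) is the plastid enzyme that reduces activated sulfate, adenosine 5'-phosphosulfate (APS), to sulfite with electrons from glutathione. It stands between ATP sulfurylase, which makes APS, and sulfite reductase, which makes the sulfide that is built into cysteine. In Arabidopsis it is regarded as a main control point of sulfate assimilation, and its transcripts are known to respond to sulfur supply, to reduced sulfur compounds, to light and to the time of day. Selenium enters plants through the sulfur route to a large extent in the form of selenate, whereas selenite, the common form of Se (IV), is thought to be reduced largely by other reactions.

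The genes were taken from the deposited expression table of alfalfa (Medicago sativa), a tetraploid forage legume, by their description: any gene described as an adenylylsulfate, phosphosulfate or APS reductase. The rule found 16 of 164632 genes. Of these, 5 had counts and were described as 5'-adenylylsulfate reductase 3, chloroplastic, and 8 were described as reductase-like. The remaining 3, MS.gene014880 on chromosome 3.3, MS.gene019994 on chromosome 6.1 and MS.gene053761 on chromosome 5.1, had no count in any library. The 13 genes with counts passed the filter on low values, which asked for at least 1 FPKM (fragments mapped to the gene, scaled by its length and by the library's total) in at least 3 libraries.

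The study sequenced poly(A) RNA of alfalfa leaves at 3 times of treatment with Se (IV) at 100 mg per kg: 0 h, 12 h and 48 h, with 3 libraries at each time. The labels name no cultivar, plant age, route of application or hour of the day. All 9 libraries belong to the treatment series and none is an untreated library of 12 h or 48 h, so the treatment and the hour of sampling cannot be told apart. Nothing in the labels tells if replicates were separate plants, so p-values measure the spread between these libraries alone, which may be technical. The 3 comparisons share their libraries pairwise.

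The libraries held 39936347 to 56137145 counts. The leaf label was met by the markers: 121 of 126 genes of leaf mesophyll (Rubisco small subunit and activase, chlorophyll-binding and chloroplast carbonic anhydrase genes) had counts and summed to 116288 to 207410 FPKM, whereas none of 43 leghemoglobin genes, which mark root nodules, had any. Copies of one gene on the 4 sets of homologous chromosomes can be near-identical, and their sequences were not compared here. How reads matching several copies were assigned is not given in the sources used here. A value for a single copy is therefore uncertain, and sums over copies are given beside it. The libraries also differed in which chromosome copies their reads were assigned to. Between any 2 libraries of 12 h a median of 9.40% to 9.63% of a gene's counts lay on different copies, and between 48 h replicates 1 and 3 it was 10.6%, against 21.0% to 24.1% within 0 h and 22.7% to 23.6% between 48 h replicate 2 and the other two. The calls below are therefore also given with the 12 h libraries summed to 1 sample and 48 h replicates 1 and 3 summed to another.

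The reductase transcripts were abundant at 0 h, low at 12 h and abundant again at 48 h. Summed over the 5 copies, the level was 1639.5, 837 and 856 FPKM in the 0 h libraries, 22.5, 19.9 and 63.9 FPKM in the 12 h libraries, and 1546, 1795 and 1005 FPKM in the 48 h libraries. Every 12 h library lay below every library of the other times, and the 0 h and 48 h libraries overlapped. The group means were 1111 ± 458, 35.4 ± 24.7 and 1448 ± 404 FPKM (SD, n = 3 each), so the mean was 31.3-fold higher at 0 h than at 12 h, and 40.9-fold higher at 48 h than at 12 h. The 12 h replicate 3 held the highest level of its group; without it the ratios were 52.3-fold and 68.2-fold. In bulk leaf RNA, fewer cells that express a gene and less RNA of it per cell cannot be told apart.

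**Figure D1:**
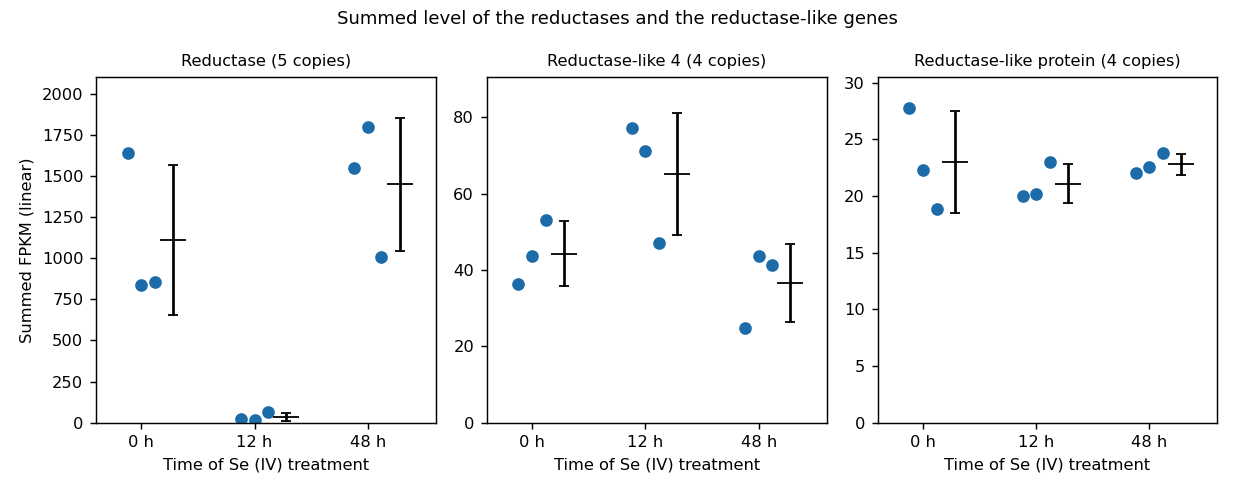
Summed FPKM (linear axes from 0) of the 5 reductase copies, the 4 copies of reductase-like 4 and the 4 copies of the reductase-like protein at each time; points are libraries, and bars beside them are the mean and SD (n = 3). The reductase sum is 19.9 to 63.9 FPKM in the 12 h libraries and 837 to 1795 FPKM in the others, whereas the reductase-like sums stay between 18.9 and 77.2 FPKM throughout.

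The 5 copies differed in abundance, and 4 of them had their 12 h libraries below all others. MS.gene002964 lies on chromosome 2.4 (63825599 to 63828026, minus strand; coordinates as in the deposited table, whose genome build is not given in the sources used here). Its level was 658, 256 and 373 FPKM at 0 h, 8.94, 9.46 and 25.5 FPKM at 12 h, and 589, 619 and 383 FPKM at 48 h. MS.gene02382 lies on the unplaced scaffold 14705 (200029 to 202465, minus strand). Its level was 614, 264 and 342.5 FPKM at 0 h, 10.6, 8.20 and 25.3 FPKM at 12 h, and 672, 872 and 432 FPKM at 48 h. For both copies each 12 h library lay below each 0 h and 48 h library.

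Chromosome 2.3 carried a pair of copies 13381 bp apart and on opposite strands. MS.gene01027 (64714352 to 64716758, plus strand) stood at 199, 119 and 77.7 FPKM at 0 h, at 2.95, 2.27 and 8.51 FPKM at 12 h, and at 163, 163 and 108 FPKM at 48 h. MS.gene00820 (64730140 to 64732546, minus strand) stood at 132, 101 and 62.9 FPKM at 0 h and at 122, 129.5 and 81.8 FPKM at 48 h. At 12 h it had no count in replicates 1 and 2 and 433 counts, or 4.62 FPKM, in replicate 3. The pair thus stood below the copies on chromosome 2.4 and scaffold 14705 in every library, and was lowest at 12 h as they were.

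The fifth copy, MS.gene00818 on the unplaced scaffold 14702 (36001 to 38407, minus strand), was detected in 3 of the 9 libraries. It had 2792 and 6417 counts in 0 h replicates 1 and 2, none in replicate 3, none in any 12 h library, and 789 counts in 48 h replicate 2 alone. The libraries where it had counts were 0 h replicates 1 and 2 and the 48 h library that stood apart in copy usage. Its groups of 0 h and 12 h overlapped at 0 and it was not called (adjusted p = 0.19, edgeR's quasi-likelihood test with Benjamini-Hochberg adjustment).

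**Figure D2:**
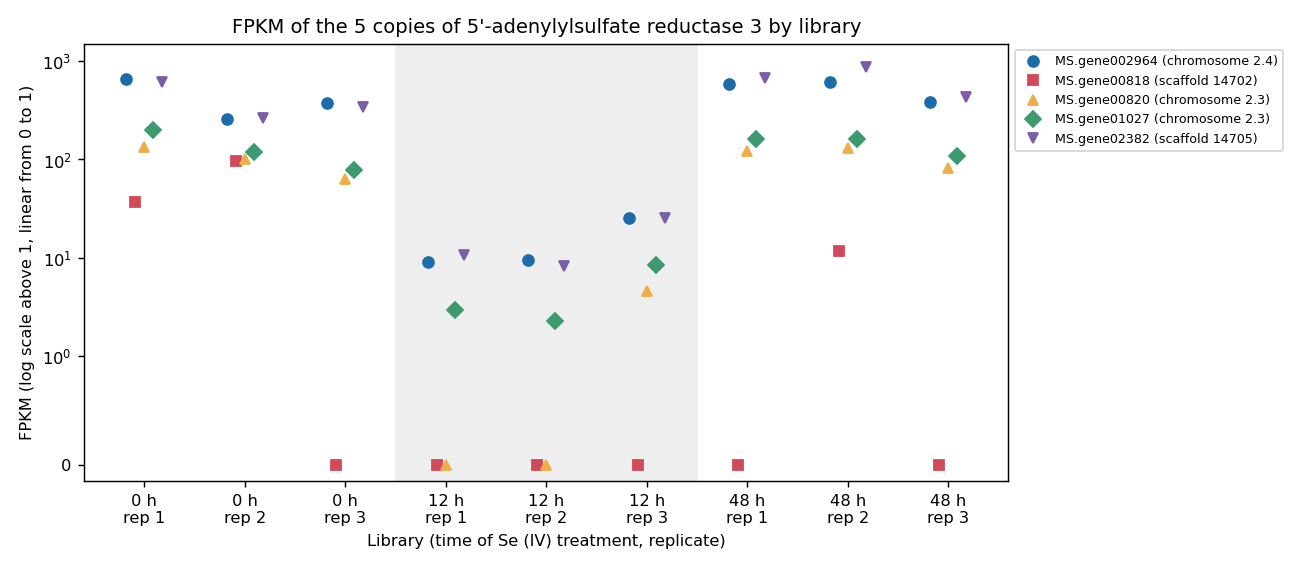
FPKM of each of the 5 reductase copies (log scale above 1, linear from 0 to 1) in the 9 libraries, ordered by time, with 12 h shaded; each symbol is 1 copy in 1 library and there are no error bars. At 12 h the highest copy reaches 25.5 FPKM, and MS.gene00818 has no counts in 6 libraries.

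At 12 h against 0 h, 3 of the 5 reductase copies fell and none rose (edgeR's quasi-likelihood test, adjusted over the 50878 genes tested). Among all 13 tested members 4 fell, and none rose, while 4.29% of all tested genes fell and 1.58% rose. The 3 called copies exceeded 1 FPKM in all 9 libraries, so the filter did not select them by their high group. The log2 change was -5.24 ± 0.61 (SE) for MS.gene002964 with an adjusted p of 0.00449, -5.16 ± 0.61 for MS.gene02382 with 0.00493 and -5.20 ± 0.64 for MS.gene01027 with 0.00561. For MS.gene00820 it was -6.35 ± 2.20 with an adjusted p of 0.14, in a gene with 2 libraries at 0. DESeq2 called 6 members, all lower, beside 9088 of the 50878 genes tested. Among the 6 were MS.gene00820 (adjusted p = 0.00671) and MS.gene00818 (adjusted p = 8.73e-12). The DESeq2 change of MS.gene00818, -29.0, rests on 12 h libraries that were all at 0, and 0 h replicate 3 was at 0 too. This copy passed the filter only through the 3 libraries where it had counts, so its call is not read as support for a fall. MS.gene00820, but not MS.gene00818, was also called by limma (adjusted p = 0.00106 and 0.00837 with pseudocounts of 1 and 0.1). Of all tested genes limma called 8256 and 5849. The FPKM ranges of 0 h and 12 h did not overlap for 4 of the 5 copies, all lower at 12 h, as for 11.8% of all tested genes.

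Summing the copies gave the same sizes. The 3 copies of chromosome 2, summed, changed by -5.39 ± 0.62 on the log2 scale (adjusted p = 0.00232 over 25825 summed groups). Of the 5 tested member groups 2 fell, the chromosome 2 group and MS.gene02382, against 6.75% of all groups. The 5 copies joined into 1 feature, a sum chosen after the data were seen because 2 copies lie on unplaced scaffolds, changed by -5.37 ± 0.60 with a 95% confidence interval of -6.74 to -4.00 (adjusted p = 0.00215).

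These calls rest on counting the 12 h libraries, and 48 h replicates 1 and 3, as separate samples. With each of those sets summed to 1 sample, no gene in the table was called in any comparison. MS.gene002964 then changed by -5.14 with an adjusted p of 0.298 and an unadjusted p of 0.00154, and the chromosome 2 sum by -5.31 with an adjusted p of 0.15. Over the 20 alternatives run for MS.gene002964 the adjusted p ranged from 6.14e-18 to 0.298 and the change from -5.91 to -4.83.

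At 48 h against 12 h, the same 3 copies rose, by 5.64 ± 0.62 for MS.gene002964 (adjusted p = 0.00316), by 5.95 ± 0.64 for MS.gene02382 (adjusted p = 0.00293) and by 5.44 ± 0.65 for MS.gene01027 (adjusted p = 0.00401) on the log2 scale. Among all 13 tested members 4 rose and none fell, while 6.96% of all tested genes rose and 3.61% fell. The FPKM ranges of 12 h and 48 h did not overlap for 4 of the 5 copies, all higher at 48 h, as for 13.9% of all tested genes. The chromosome 2 sum rose by 5.76 ± 0.63 (adjusted p = 0.00133), and 2 of the 5 tested member groups rose against 10.0% of all groups. With all 5 copies joined the change was 5.87 ± 0.61 with a 95% confidence interval of 4.46 to 7.28 (adjusted p = 0.00117). With libraries of like copy usage summed the chromosome 2 sum still differed by 5.77 but with an adjusted p of 0.149.

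At 48 h against 0 h, none of the 13 members was called by edgeR, none had an unadjusted p under 0.05, and DESeq2 called none, while edgeR called 1.14% of all tested genes. None of the 5 tested member groups of summed copies was called by edgeR or DESeq2 or had an unadjusted p under 0.05, against 3.72% of all groups called in edgeR. The joined reductases differed by 0.50 ± 0.50 with a 95% confidence interval of -0.64 to 1.64 (adjusted p = 0.653). The interval leaves room for a level at 48 h somewhat below or well above that at 0 h. Of the single copies MS.gene02382 had the highest estimate, 0.80 ± 0.52 with an adjusted p of 0.519.

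**Figure D3:**
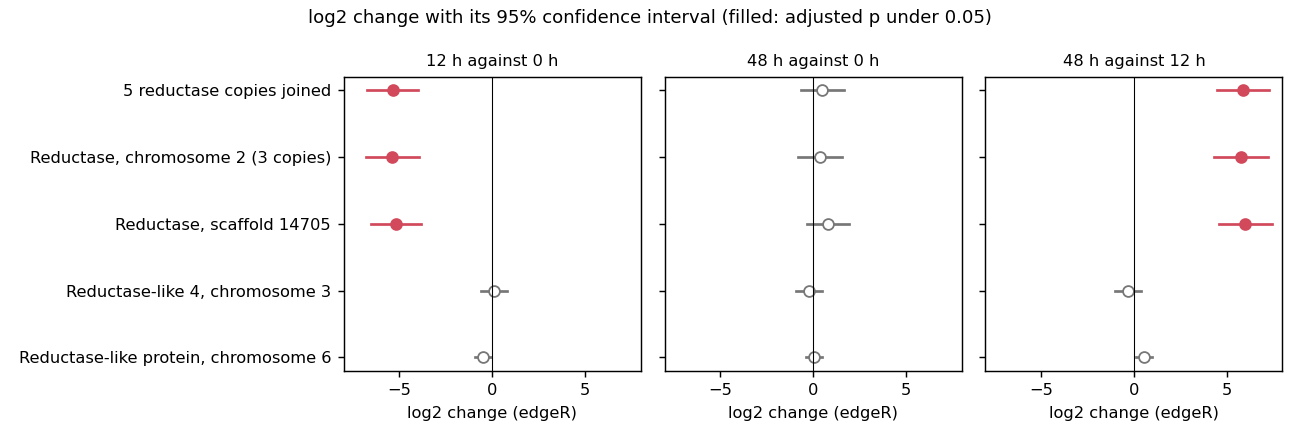
edgeR log2 changes of the summed reductases and reductase-like genes in the 3 comparisons, as points with 95% confidence intervals; filled points have an adjusted p under 0.05. The reductase rows lie near -5 at 12 h against 0 h, near 6 at 48 h against 12 h, and cross 0 at 48 h against 0 h.

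In rank order of mean FPKM, MS.gene002964 was gene 303 at 0 h, gene 9346 at 12 h and gene 230 at 48 h, among 84937 to 88994 genes with counts at each time. MS.gene02382 took ranks 320, 9309 and 192. Both ranked near the top of the leaf transcripts at 0 h and 48 h and far lower at 12 h.

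The counts were divided unequally among the copies. MS.gene002964 and MS.gene02382 together held 62.2% to 88.6% of the reductase counts in the 9 libraries. The ratio of MS.gene02382 to MS.gene002964 stayed between 0.867 and 1.41. MS.gene01027 exceeded MS.gene00820 by 1.19 to 1.84 times in the 7 libraries where both had counts, while in 12 h replicates 1 and 2 it had 228 and 189 counts beside none. The share of MS.gene00820 was 7.35% to 12.0% at 0 h, 7.21% to 8.14% at 48 h, and 0 in those 2 libraries of 12 h. The lowest share of MS.gene002964 was 30.6% in 0 h replicate 2 (95% Wilson interval 30.2% to 31.0%, for counting error only), the library where MS.gene00818 held 11.5% (11.2% to 11.8%), and its highest was 47.5% in 12 h replicate 2 (45.1% to 49.9%). At the floor of 3 counts, the absence of MS.gene00818 from 12 h replicate 2 allows a share of up to 0.181% of its 1660 reductase counts.

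**Figure D4:**
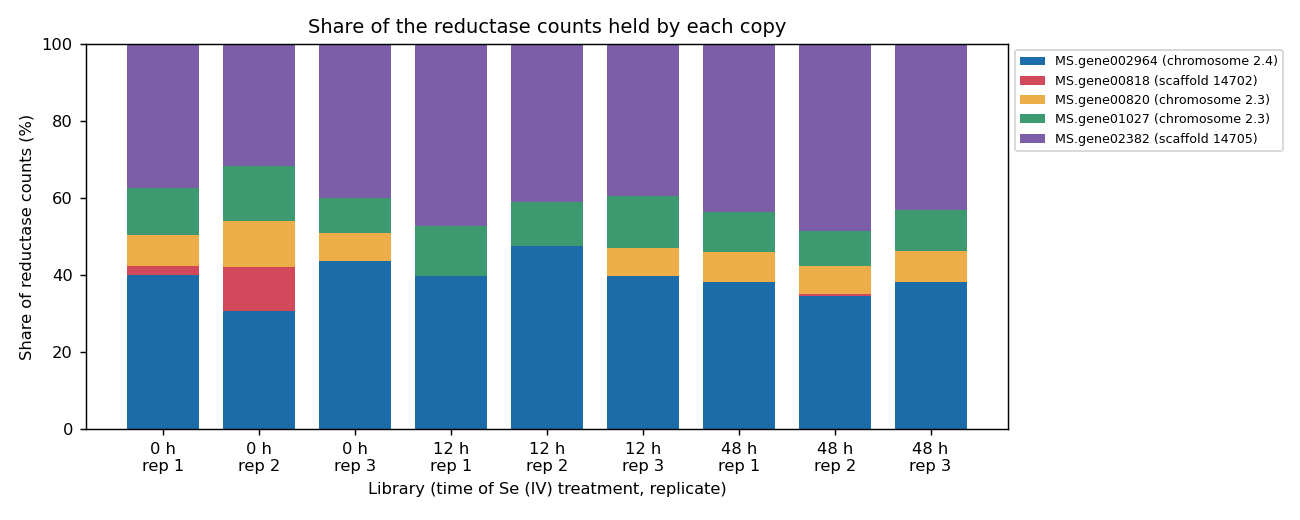
Share of the reductase counts (percent, summing to 100) assigned to each of the 5 copies in each library. The copies on chromosome 2.4 and scaffold 14705 hold 62.2% to 88.6% together, and MS.gene00818 appears only in 0 h replicates 1 and 2 and 48 h replicate 2.

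The copies also shared their surroundings in the gene order of the table. MS.gene002964 and both scaffold copies were each preceded by a gene for PHOSPHATE STARVATION RESPONSE 3, a factor of the phosphate response, and before it by an FAD-binding berberine family gene; none of these 6 neighbours had a count in any library. On the other side, MS.gene002964 and MS.gene00820 were each followed by a gene for lactoylglutathione lyase GLX1, an enzyme of methylglyoxal removal. The GLX1 gene beside MS.gene002964 stood at 22.6 ± 5.03 FPKM at 0 h, 5.81 ± 6.67 at 12 h and 4.92 ± 4.80 at 48 h. The one beside MS.gene00820 stood at 29.3 ± 15.8, 25.3 ± 3.24 and 20.2 ± 2.55 FPKM (SD, n = 3). Both means were lower at 12 h than at 0 h, the second within its SD. Neither mean was higher at 48 h than at 12 h.

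The reductase-like genes were less abundant at 0 h and 48 h, and most of them were not called. In Arabidopsis the APS reductase-like proteins have a thioredoxin-type domain and lack the part that reduces APS, and the deposited table gives the alfalfa genes the term protein disulfide isomerase activity. Their 8 genes summed to 63.96, 65.9 and 71.9 FPKM at 0 h, 97.2, 91.3 and 70.2 FPKM at 12 h, and 46.9, 66.2 and 65.0 FPKM at 48 h. The reductases therefore exceeded them 11.9-fold to 25.6-fold at 0 h and 15.5-fold to 32.9-fold at 48 h, while at 12 h the ratio was 0.218 to 0.909, below 1 in all 3 libraries. Of the 8, 1 gene, MS.gene49787, fell at 12 h against 0 h and rose at 48 h against 12 h. Over all tested genes 4.29% fell and 6.96% rose in these comparisons.

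Reductase-like 4 had 4 copies, on chromosomes 3.1 to 3.4. Their sum was 44.3 ± 8.43 FPKM at 0 h, 65.1 ± 15.8 at 12 h and 36.6 ± 10.2 at 48 h (SD, n = 3). It differed by 0.11 ± 0.31 on the log2 scale at 12 h against 0 h (adjusted p = 0.871) and by -0.33 ± 0.31 at 48 h against 12 h (adjusted p = 0.512). The FPKM means lie further apart than the fitted changes because edgeR's TMM scaling assigned the 12 h libraries factors of 1.20 to 1.27 and the others 0.835 to 0.988; with library totals alone, the table-wide median of the log2 changes was 0.39 for 12 h against 0 h, -0.14 for 48 h against 0 h and -0.54 for 48 h against 12 h. The most abundant copy, MS.gene29817 on chromosome 3.4 (73030476 to 73033332, minus strand), stood at 23.4, 13.1 and 14.2 FPKM at 0 h, 21.9, 19.0 and 15.7 at 12 h and 16.3, 11.3 and 12.8 at 48 h, with overlapping groups. Single copies came and went between replicates: MS.gene022477 had no count in 0 h replicate 1 or 48 h replicate 1 and 466 to 1035 counts elsewhere, and MS.gene35587 ranged from 1.32 to 18.0 FPKM within 12 h.

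The other reductase-like description also had 4 copies, on chromosomes 6.1 to 6.4, which summed to 23.0 ± 4.49 FPKM at 0 h, 21.1 ± 1.70 at 12 h and 22.8 ± 0.91 at 48 h (SD, n = 3). The sum differed by -0.50 ± 0.19 on the log2 scale at 12 h against 0 h (adjusted p = 0.137) and by 0.55 ± 0.19 at 48 h against 12 h (adjusted p = 0.082), neither past the threshold in edgeR, while DESeq2 gave 0.0229 and 0.00553. With library totals in place of TMM the differences were -0.07 (adjusted p = 0.855) and 0.0055 (adjusted p = 0.987). MS.gene66984 on chromosome 6.4 (3758274 to 3760497, plus strand), the most abundant copy, stood at 17.8, 7.15 and 9.71 FPKM at 0 h, 14.4, 13.7 and 16.6 at 12 h, and 5.10, 7.94 and 5.47 at 48 h. Its 48 h libraries lay below those of 12 h without passing the test (-0.81 ± 0.39, adjusted p = 0.23).

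MS.gene49787 on chromosome 6.3 (20321673 to 20323210, plus strand) was the one reductase-like gene called. Its level was 6.31, 6.83 and 8.68 FPKM at 0 h, 3.01, 3.63 and 3.33 FPKM at 12 h, and 7.60, 6.91 and 7.71 FPKM at 48 h, so the 12 h libraries lay below all others. It fell by 1.53 ± 0.34 on the log2 scale at 12 h (adjusted p = 0.0388) and rose by 1.60 ± 0.34 from 12 h to 48 h (adjusted p = 0.0242). The first call was lost in 12 of 20 alternatives and the second in 9 of 20. Its counterpart on chromosome 6.2, MS.gene061974, had counts in 0 h replicate 2 (228) and in all 3 libraries of 48 h (259 to 356) and none elsewhere, and was not called. The copy on chromosome 6.1, MS.gene87960, stayed between 0.241 and 3.65 FPKM in all 9 libraries.

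Among the other steps of sulfur assimilation, calls at 12 h were most frequent in the sulfate transporters. These carry sulfate into and between cells. Of 22 tested genes 13 fell at 12 h and none rose, and 16 rose from 12 h to 48 h. Over all tested genes 4.29% fell and 1.58% rose at 12 h, and 6.96% rose from 12 h to 48 h. The median log2 change of the list was -3.42 at 12 h, against -0.01 over all tested genes, and 2.93 from 12 h to 48 h, against -0.05. The most abundant, probable sulfate transporter 3.3 on chromosome 4 (6 copies summed), went from 257, 160.0 and 309.5 FPKM to 18.8, 14.1 and 10.98 and back to 126, 181 and 147, and fell by 4.49 ± 0.37 on the log2 scale (adjusted p = 0.00068).

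ATP sulfurylase makes the substrate of the reductases. Of 10 tested genes 2 fell at 12 h and 3 rose from 12 h to 48 h, against 4.29% and 6.96% of all tested genes. The list medians were -3.40 and 3.53. In these comparisons 4 and 6 genes had an unadjusted p under 0.05, and DESeq2 called 4 and 7. Of the 50878 genes tested, 11065 and 13909 had an unadjusted p under 0.05, and DESeq2 called 9088 and 12412. The 4 summed copies of ATP sulfurylase 1 stood at 399.5, 309.9 and 348 FPKM at 0 h, 194, 181 and 251 at 12 h, and 339.5, 299 and 220 at 48 h. They fell by 1.18 ± 0.25 on the log2 scale at 12 h (adjusted p = 0.0215) and rose by 0.97 ± 0.25 to 48 h (adjusted p = 0.0313). The 95% confidence interval of their 12 h change was -1.75 to -0.62, beside -6.74 to -4.00 for the joined reductases; the difference between the 2 changes was not tested.

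APS kinase draws APS away from the reductases, toward the sulfate donor of sulfotransferases. None of its 14 tested genes was called by edgeR at 12 h against 0 h. There 3 had an unadjusted p under 0.05 and DESeq2 called 3, beside 11065 and 9088 of the 50878 genes tested. At 48 h against 12 h edgeR called 1 gene and 1 of 6 summed groups lower. Of all 50878 genes it called 1835 lower, and of all 25825 groups 1803. The most abundant, adenylyl-sulfate kinase 3, stood at 18.5 ± 1.40, 17.4 ± 1.46 and 19.3 ± 5.14 FPKM. The list as a whole summed to 28.6, 35.3 and 35.0 FPKM at 0 h, 50.4, 47.4 and 93.3 at 12 h, and 27.5, 36.1 and 37.0 at 48 h. In these sums, which are without TMM scaling, the 12 h libraries lay above all others. The TMM factors were 1.20 to 1.27 at 12 h and 0.835 to 0.988 in the other libraries, and the list sum was not fitted with them. In the edgeR fit the median log2 change of the list at 12 h against 0 h was 0.355. Of the genes around that branch, none of 3 sulfotransferases and none of 3 genes for the phosphatases that remove its by-product were called by edgeR in any comparison. The 3 sulfotransferases had an unadjusted p under 0.05, and were called by DESeq2, at 48 h against 12 h. Of the 50878 genes tested, 13909 and 12412 did so in that comparison. In the other comparisons both counts were 0 for the sulfotransferases, as they were for the phosphatases throughout.

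Sulfite reductase uses the product of the reductases. None of its 3 tested copies was called singly by edgeR at 12 h against 0 h. There 2 had an unadjusted p under 0.05 and DESeq2 called 1, beside 11065 and 9088 of the 50878 genes tested. The sum of the copies fell by 1.29 ± 0.33 on the log2 scale at 12 h (adjusted p = 0.0448), from 90.4, 83.3 and 57.5 FPKM to 36.0, 29.1 and 60.1. It stood at 34.8, 49.6 and 29.3 FPKM at 48 h, overlapping 12 h (0.38 ± 0.33, adjusted p = 0.475). None of 6 genes for sulfite oxidase, which returns sulfite to sulfate, was called by edgeR or DESeq2 or had an unadjusted p under 0.05 in any comparison.

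Serine acetyltransferase supplies the carbon skeleton of cysteine. Of 11 tested genes 1 fell at 12 h in edgeR. There 4 had an unadjusted p under 0.05 and DESeq2 called 2, beside 11065 and 9088 of the 50878 genes tested. The summed chromosome 8 group fell by 1.75 ± 0.36 (adjusted p = 0.0213), from 106 ± 17.3 to 42.6 ± 4.93 FPKM. It rose by 1.39 ± 0.36 (adjusted p = 0.0342) to 77.2 ± 38.5 at 48 h, and 1 single gene also rose. None of 30 cysteine synthase genes, which complete cysteine, was called singly by edgeR. Of their 12 tested summed groups 1 was lower at 48 h than at 12 h, beside 1803 of all 25825. At 12 h against 0 h 3 genes had an unadjusted p under 0.05 and DESeq2 called 4, beside 11065 and 9088 of the 50878 tested. Both shares are below those of all tested genes. The most abundant group stood at 189 ± 15.1, 202 ± 14.1 and 129 ± 21.1 FPKM. Of 5 genes of glutathione synthesis, the reductases' electron donor, none was called by edgeR or DESeq2 or had an unadjusted p under 0.05 at 12 h against 0 h. At 48 h against 12 h edgeR called 1 of these genes and 1 of their 3 tested summed groups lower, beside 1835 of 50878 genes and 1803 of 25825 groups. Of 17 genes of selenium handling (selenocysteine, methyl transfer and cysteine desulfurase genes), 2 fell and 1 rose at 12 h in edgeR. At 12 h against 0 h 11 of them had an unadjusted p under 0.05, beside 11065 of the 50878 genes tested. DESeq2 called 9 of them, beside 9088 of the 50878. Their median log2 change was -0.82, against -0.01 over all tested genes. Over all tested genes edgeR called 4.29% lower and 1.58% higher at 12 h. No single gene of the 12 lists described here was called by edgeR at 48 h against 0 h. There 15 of 132 had an unadjusted p under 0.05, beside 8366 of the 50878 genes tested. DESeq2 called 12 of the 132, beside 5582 of the 50878. Both shares are below those of all tested genes. Of the lists' summed groups, 1 to 12 tested in each list, edgeR called 2, both of selenium handling. It called 3.72% of all tested groups, and the 2 calls were not tested against that share. Selenium-binding protein 1 on chromosome 3 fell by 1.04 ± 0.20 (adjusted p = 0.0328), from 83.9 ± 19.9 to 38.1 ± 2.40 FPKM. A homocysteine S-methyltransferase-like group on chromosome 1 was higher (adjusted p = 0.0497), with no count at 0 h and 370, 50 and 208 counts at 48 h.

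Among the regulators of the sulfur-deficiency response, 3 of 8 tested genes fell at 12 h and 3 rose from 12 h to 48 h. Over all tested genes the shares were 4.29% and 6.96%. SULFUR DEFICIENCY-INDUCED 1, which in Arabidopsis is induced by low sulfur and represses glucosinolate synthesis, stood at 37.8, 35.3 and 37.4 FPKM at 0 h, 2.86, 2.20 and 5.89 at 12 h, and 37.5, 33.5 and 15.1 at 48 h. Its 4 summed copies fell by 3.75 ± 0.50 on the log2 scale (adjusted p = 0.00396) and rose by 3.49 ± 0.50 (adjusted p = 0.00355).

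**Figure D5:**
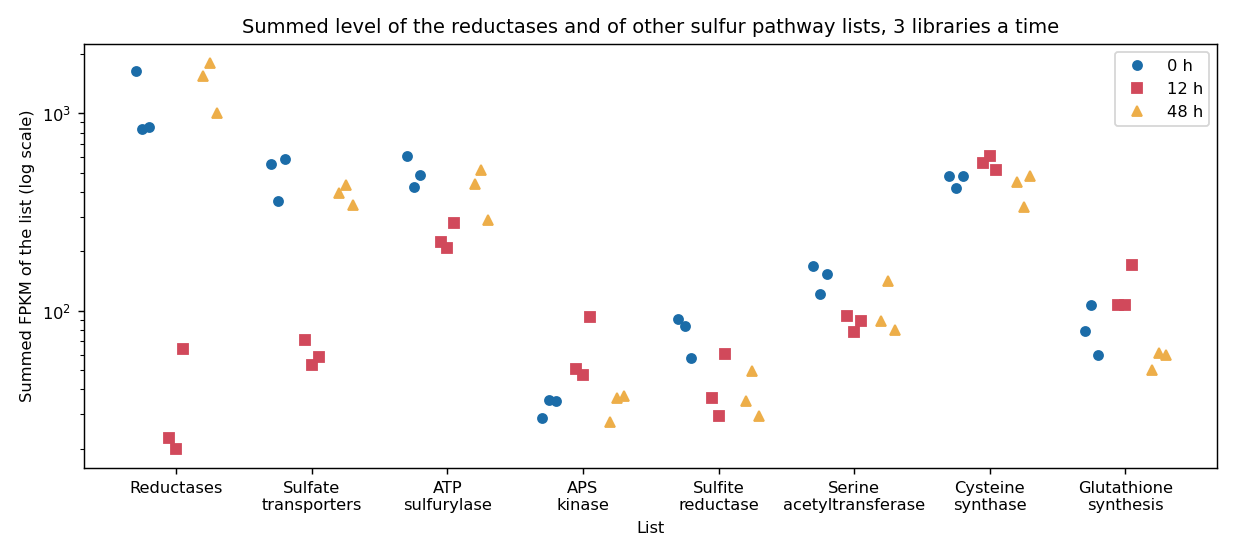
Summed FPKM (log scale) of the reductases and of 7 other sulfur pathway lists; each point is 1 library, 3 at each of 0 h, 12 h and 48 h. The reductases, the sulfate transporters and ATP sulfurylase have their 12 h libraries below all others, with 53.4 to 71.1 FPKM for the transporters and 209 to 280 for ATP sulfurylase. Cysteine synthase has 519 to 607 FPKM at 12 h against 418 to 484 at 0 h, values without TMM scaling. In the edgeR fit with that scaling its most abundant group changed by -0.33 ± 0.18 on the log2 scale (adjusted p = 0.28).

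Set against other steps in the same library, the reductases were the larger pool in every 0 h and 48 h library. Their summed FPKM was 2.69, 1.96 and 1.75 times that of the ATP sulfurylase genes at 0 h, 0.101, 0.0955 and 0.228 times at 12 h, and 3.51, 3.49 and 3.49 times at 48 h. Against sulfite reductase the ratio was 18.1, 10.0 and 14.9 at 0 h, 0.626, 0.684 and 1.06 at 12 h, and 44.4, 36.2 and 34.3 at 48 h. In these 2 ratios the 3 times did not overlap, and the 48 h libraries were highest. Against the sulfate transporters the ratio was 1.45 to 2.97 at 0 h, 0.317 to 1.09 at 12 h and 2.91 to 4.12 at 48 h, and against APS kinase 23.7 to 57.4, 0.421 to 0.685 and 27.2 to 56.3. In these the 12 h libraries were again lowest, while 0 h and 48 h overlapped.

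The genes whose course across the 9 libraries was most like that of the reductase total were ranked by Pearson's r of log2(TMM-scaled CPM + 1, where CPM is counts scaled to the library's total). The ranking covered 9507 tested summed groups outside the members with a mean of at least 5 FPKM. Left out were groups described as hypothetical, uncharacterized, unknown, unnamed or predicted protein. Groups with no description, or one that begins with the letters NA, were left out as well. The values compared share libraries and scaling, and r is given as a description. Ahead of all others were amino acid permease 6, an amino acid importer, with r = 0.993, granule-bound starch synthase 1, which makes amylose, with 0.992, and a UV-B-induced protein described after At3g17800, with 0.992. The next were S-adenosylmethionine decarboxylase, of polyamine synthesis (0.991), and, each at 0.990, inositol-3-phosphate synthase, BIC1, an inhibitor of the blue-light receptor cryptochrome, CBL-interacting protein kinase 2 and a putative magnesium chelatase gene, MS.gene045010. B-box zinc finger protein 24 and pectin acetylesterase 12 had 0.989. Of the sulfur lists' leading genes, SULFUR DEFICIENCY-INDUCED 1 had the highest r, 0.970 at rank 77, followed by sulfate transporter 3.3 with 0.942 and ATP sulfurylase 1 with 0.917, while cysteine synthase had -0.025.

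The morning clock gene LHY moved with the reductases as well, with r = 0.980 at rank 36. Its 4 copies summed to 228, 222 and 187 FPKM at 0 h, 0.583, 0.722 and 1.20 FPKM at 12 h, and 713, 903 and 756 FPKM at 48 h. Its low libraries were those of 12 h, as for the reductases. The part of the hour of sampling in the reductase values was not tested. Of the markers of other tissues, 48 of 59 xylem genes had counts and summed to 16.5 to 60.3 FPKM at 0 h, 7.29 to 9.23 at 12 h and 13.8 to 51.0 at 48 h, and 60 of 136 seed genes to 33.4 to 61.6, 82.1 to 122 and 200 to 278. The phloem list, 75 of 121 genes with counts, ranged from 425 to 1406, 718 to 1422 and 327 to 775 FPKM. The xylem sum was lowest in the 12 h libraries, as the reductases were, and the phloem ranges overlapped between 0 h and 12 h. The leaf mesophyll sum was 128924 to 180490 FPKM at 0 h, 116288 to 132855 at 12 h and 153389 to 207410 at 48 h. Its 12 h libraries overlapped those of 0 h and lay below those of 48 h. All these sums are without TMM scaling. The part of these cell types in the result was not tested.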

How the data were processed

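Leaf poly(A) RNA of 9 libraries, 3 at each time, was sequenced in pairs, per the labels' protocols. HISAT and StringTie are named in the submitters' processing notes, without versions or roles; the genome build and how multi-copy reads were assigned are not stated there. The authors deposited whole-number counts and FPKM values for each gene and library in 1 table; FPKM is listed as 0.0001 where the count is 0 and was read as 0. Members, lists and tests were chosen with earlier results of these data known.

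Counts were tested with edgeR 4.0.16 (R 4.3.3): TMM scaling, 1 mean for each time, all 9 libraries, quasi-likelihood F test, Benjamini-Hochberg adjustment over 50878 genes with at least 1 FPKM in at least 3 libraries, threshold 0.05. The fit was repeated on 25825 sums of copies with the same description and chromosome. SE is the log2 change divided by the root of F. Named genes were all members called or, in each reductase-like description and sulfur list, highest in mean FPKM, and the 10 likest groups. Alternatives included DESeq2 1.42.0 and limma 3.58.1. Of 164632 genes 63624 had no count. A floor of 3 counts per library was 0.0534 to 0.0751 CPM. The procedure was tested on simulated data.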

Additional observations from a re-analysis of the deposited data

How the results depend on the processing

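The fall of the 3 called reductase copies at 12 h, and their rise to 48 h, held under 19 of 20 alternatives each; the exception, libraries of like copy usage summed, called 0 members and 0 summed groups in every comparison. Between 12 h and 48 h limma called 8 members on log2(FPKM + 1), 6 higher and 2 lower, and 7 on log2(FPKM + 0.1), 6 higher and 1 lower. Of the 50878 genes tested it called 12845 and 10640 in either direction. For both the fall and the rise DESeq2 called 4 summed groups, where edgeR called 2. Of all 25825 groups DESeq2 called 5333 and 7351 in either direction, where edgeR called 2619 and 4393. With unplaced copies joined to their group, chosen after seeing the data, edgeR called 1 of 3, by construction. Leaving out 1 library gave 3 to 4 members for the fall, 3 to 5 for the rise, and 0 to 1 between 0 h and 48 h; the 1 was MS.gene061974, higher without 0 h replicate 2, its only 0 h library with counts. With the reductase-like genes added to the total, the log2 ratio of means was -3.28 for the fall (-4.97 without them) and 3.63 for the rise (5.35), by construction.

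All reversed signs were in reductase-like genes or sums not called in that comparison, and the cause was not tested. Between 0 h and 12 h MS.gene29817 (-0.209) had 0.184 with library totals, 0.186 and 0.197 with limma and -0.368 to 0.0343 without 1 library. Without 1 library it also ranged from -0.421 to 0.00799 between 0 h and 48 h and from -0.212 to 0.0754 between 12 h and 48 h. MS.gene66984 between 0 h and 12 h (-0.00317) had 0.0183 with DESeq2, 0.0188 with median-of-ratios scaling, 0.386 with library totals, 0.0385 with no filter, 0.0114 with at least 5 FPKM, 0.423 and 0.461 with limma, 0.025 with the replicate block, 0.0491 with like libraries summed and -0.258 to 0.375 without 1 library. Between 0 h and 48 h MS.gene49787 had -0.00178 with library totals and -0.0518 to 0.302 without 1 library, and the summed reductase-like protein -0.0644 and -0.0187 to 0.182. Without 1 library summed reductase-like 4 ranged from -0.0529 to 0.348 between 0 h and 12 h and from -0.41 to 0.02 between 0 h and 48 h.

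Replicate numbers did not pair the libraries: deviations of same-numbered libraries correlated at -0.0294 to 0.0214. With the replicate block 3 members fell by 12 h, 3 rose to 48 h and 0 were called between 0 h and 48 h; of all genes 817, 1771 and 0 were called, against 2991, 5378 and 582 without it.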

Other observations

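A further 4 genes carry the enzyme's number in the table's annotation columns but not in their descriptions: MS.gene022049, described as hypothetical, and MS.gene031931, MS.gene44782 and MS.gene54028, described as aluminum-activated malate transporters. They reached at most 109 counts and 2.37 FPKM in any library and were not counted as members.

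At 48 h the reductase total ranged from 1005 to 1795 FPKM between libraries, while its ratio to the ATP sulfurylase total was 3.49 to 3.51. The same ratio spanned 1.75 to 2.69 at 0 h and 0.0955 to 0.228 at 12 h.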
